A study of Saccharomyces cerevisiae with 56 samples.

Results

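The segregants described here came from a cross of the laboratory strain S288C (MATα) with 59A, a haploid MATa derivative of the industrial wine strain EC1118, and they were split by the level of the asparaginase II transcript. Of the 44 segregants, the 20 with a log2 signal of ASP3-4 above 10 are called carriers and the 24 below 10 non-carriers. Each segregant is a separate haploid genotype measured on 1 array, and all of them were grown in the same synthetic grape must and harvested in stationary phase late in fermentation. The series holds 56 one-colour arrays of total RNA: the 44 segregants, and 12 arrays of the parents, with 2 RNA extracts of each parent on 3 arrays apiece. The first part of an array's title is taken as its slide, which the labels do not name. On that reading the arrays lay on 7 slides of 8, and each slide held both groups. Each had between 1 and 4 carriers and between 2 and 5 non-carriers. The p-values over segregants measure the spread between genotypes and arrays together, and the number of arrays limits their precision.

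Asparaginase II, encoded by the ASP3 genes, is an enzyme of the cell wall and periplasm that splits external asparagine into aspartate and ammonium, and its genes are switched on under nitrogen starvation. In S288C it is encoded by a tandem repeat on the right arm of chromosome 12, next to the ribosomal DNA, and many other strains of the species lack the repeat. A second asparaginase, encoded by ASP1 on chromosome 4, works inside the cell. Spores that inherit the repeat differ from sister spores without it in that enzyme and in whatever other parental alleles travel with it, so genes with YLR names (the right arm of chromosome 12) were set apart from genes elsewhere.

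The split left a wide empty range. ASP3-4 gave a log2 signal of 5.25 at the lowest, 5.35 at the median and 6.95 at the highest in the non-carriers. In the carriers the lowest, median and highest log2 signals were 14.34, 15.04 and 15.88. The groups did not overlap, and the segregants just inside and just outside the threshold were 14a at 14.34 and 29c at 6.95. The 59A extracts gave 5.34 and 5.36 and the S288C extracts 15.45 and 15.48, so that each group sat beside one parent. The members of both groups were chosen by these ASP3-4 values, which are given with no test. Carriers made up 45.5% of the segregants (95% Wilson interval 31.7 to 59.9, counting error only). The number in a segregant's name (7a, 7b, 7c) is taken as its ascus. Of 26 numbers, 13 had only 1 segregant and could not hold both groups, and 9 held segregants of both. The 2 numbers with 4 segregants each, 16 and 22, held 2 carriers and 2 non-carriers apiece.

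The other ASP3 copies, whose probes read near-identical sequence and are no separate evidence, showed the same split. ASP3-1 ranged from 14.27 to 15.88 in the carriers and from 5.24 to 7.02 in the 21 non-carriers with a value. ASP3-2 and ASP3-3 had means of 15.07 ± 0.53 and 15.01 ± 0.54 (SD, n = 20) in the carriers and of 5.47 ± 0.34 and 5.51 ± 0.36 (SD, n = 24) in the non-carriers. A log2 signal above 6.3, which is 1 above the background of 5.3 given in the methods, was taken as detected. In all non-carriers but 29c the 4 copies were below it, so the fold is a bound computed against that limit or the array's own value where higher: the carriers were at least 455-fold higher for ASP3-4 and at least 413-fold higher for ASP3-3. The carriers 16c, 20a, 19c and 22d had ASP3 copies tied at the highest value of their arrays, 15.84 to 15.88, so differences among those 4 at the top of the scale were not measured. In 21c, a non-carrier, ASP3-1 and ASP3-4 gave 6.28 and 6.11, below 29c and above the remaining non-carriers, but under the detection limit.

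Short reading frames lie between and beside the ASP3 copies, and 3 of them, YLR156W, YLR159W and YLR161W, are uncharacterised genes with probes on the array. They belong to the same repeat as the genes of the rule, so their values are a description too. YLR161W gave 8.64, 9.48 and 11.30 (lowest, median, highest log2 signal) in the carriers and 5.27, 5.36 and 5.55 in the non-carriers. YLR156W had a mean of 9.33 ± 0.60 in the carriers and 5.34 ± 0.06 in the non-carriers, and YLR159W 9.31 ± 0.61 and 5.34 ± 0.08 (SD, n = 20 and 24). Every non-carrier, 29c and 21c included, was under the detection limit for the 3 frames, and the carriers were at least 8.16-fold higher for YLR156W, 8.03-fold for YLR159W and 9.48-fold for YLR161W. The S288C extracts gave 9.30 and 9.84 for YLR161W, inside the carriers' range. Segregant 19c was the highest for each of them, at 11.06, 11.02 and 11.30.

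**Figure D1:**
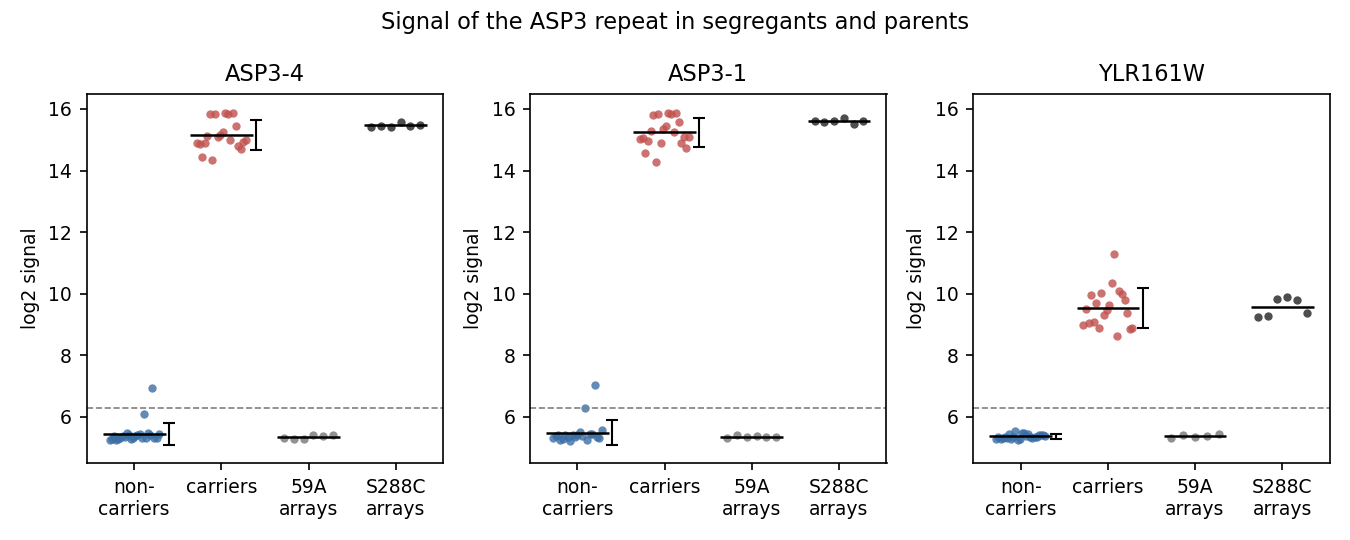
Log2 signal of ASP3-4, ASP3-1 and YLR161W in the 24 non-carriers, the 20 carriers and the 6 arrays of each parent; points are arrays, bars the mean, whiskers the SD over segregants and the dashed line the detection limit of 6.3. The carriers lie at 14.34 or above for ASP3-4 and at 8.64 or above for YLR161W, and all non-carriers but 29c lie below the limit for the ASP3 copies.

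Across the whole array, few transcripts differed between carriers and non-carriers. Of 6227 probes tested with limma over all 44 segregants, 8 passed an adjusted p of 0.01 (Benjamini-Hochberg), which is 0.128% of the probes, and each was higher in the carriers. All of them were YLR genes (8 of 374 tested, 2.14%): the 4 ASP3 copies, the 3 frames of the repeat and PUS5. The copies and frames belong to the repeat that made the split, so 7 of these calls restate it and nothing is read from them. The same 7 probes (0.112%) are those whose groups did not overlap, which follows from the split as well. Outside the YLR names, limma called 0 of 4806 genes, while 334 of them (6.95%) had an unadjusted p under 0.05, 131 higher (2.73%) and 203 lower (4.22%) in the carriers. For these genes the 95% interval of the difference had a median half-width of 0.22 log2 units, and for 97.0% of them the whole interval lay within 1 log2 unit of zero. The smallest adjusted p outside the YLR names was that of CRM1, the nuclear export receptor, named after its values were seen: it differed by -0.24 on the log2 scale, carriers minus non-carriers (limma, adjusted p = 0.069), with 9.38 ± 0.22 against 9.61 ± 0.13 (SD, n = 20 and 24). The parents differed the other way for CRM1, by 0.24.

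PUS5 (YLR165C), the enzyme that makes a pseudouridine in the large ribosomal RNA of mitochondria, was the called gene outside the repeat. The non-carriers gave 7.74, 8.05 and 8.53 (lowest, median, highest log2 signal) and the carriers 8.20, 8.68 and 9.02. The groups overlapped, with 16 of 20 carriers above the highest non-carrier, 1b, and 16 of 24 non-carriers below the lowest carrier, 16d. The difference was 0.57 ± 0.06 log2 units (SE; 95% interval 0.44 to 0.69), or 1.48-fold, with an adjusted p of 1.2e-08 by limma. The YLR genes outside the repeat hold 1 call among 367 (0.272%), and PUS5 is that call. All 20 carriers exceeded the non-carriers' median, and the carriers' mean exceeded the non-carriers' on each of the 7 slides, by 0.38 to 0.81.

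The parents, whose arrays played no part in the split, differed at PUS5 in the same direction. The 59A extracts gave 8.19 and 8.23 and the S288C extracts 8.77 and 8.61, which do not overlap. The parental difference was 0.48 ± 0.08 (SE, n = 2 extracts each), inside the interval of the segregants, with an adjusted p of 0.0046 by limma. It was under the 0.7 log2 units that the methods ask of a parental call. One 59A array had no PUS5 value, so that extract is the mean of its other arrays. Counting annotated protein-coding genes, PUS5 lies 5 places to the right of the repeat, on the side away from the ribosomal DNA. The methods warn that a local linkage can be an artifact of sequence changes that weaken binding to the probe. Whether this holds for PUS5, or for YPS3 below, was not tested.

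YPS3 (YLR121C), a cell-surface aspartic protease of the yapsin family named after its values were seen, missed the 0.01 threshold and passed 0.05, where the count became 9 (0.145%). The 22 non-carriers with a value gave 8.05, 9.51 and 12.14 (lowest, median, highest log2 signal) and the carriers 9.83, 10.63 and 11.52. The non-carriers spread over a range that held the whole of the carriers' range, and 14 of them were below the lowest carrier. The difference was 1.00 ± 0.22 (SE; 95% interval 0.55 to 1.45, adjusted p = 0.039 by limma), and the carriers' mean was the higher on all 7 slides, by 0.31 to 1.72. The highest segregant of all was the non-carrier 7c; without it YPS3 passed 0.01 (difference 1.12, adjusted p = 0.00045, 9 calls in all). Over the 44 fits that each left out 1 segregant, 18 had YPS3 under 0.05, with the highest adjusted p, 0.085, without the carrier 23c. Without 19c and 20a the adjusted p was 0.11. The parents differed by 3.01 ± 0.25 (SE, adjusted p = 0.00036), with 59A extracts at 8.12 and 8.40 and S288C extracts at 10.89 and 11.65. YPS3 lies 35 annotated genes to the left of the repeat, across the ribosomal DNA.

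**Figure D2:**
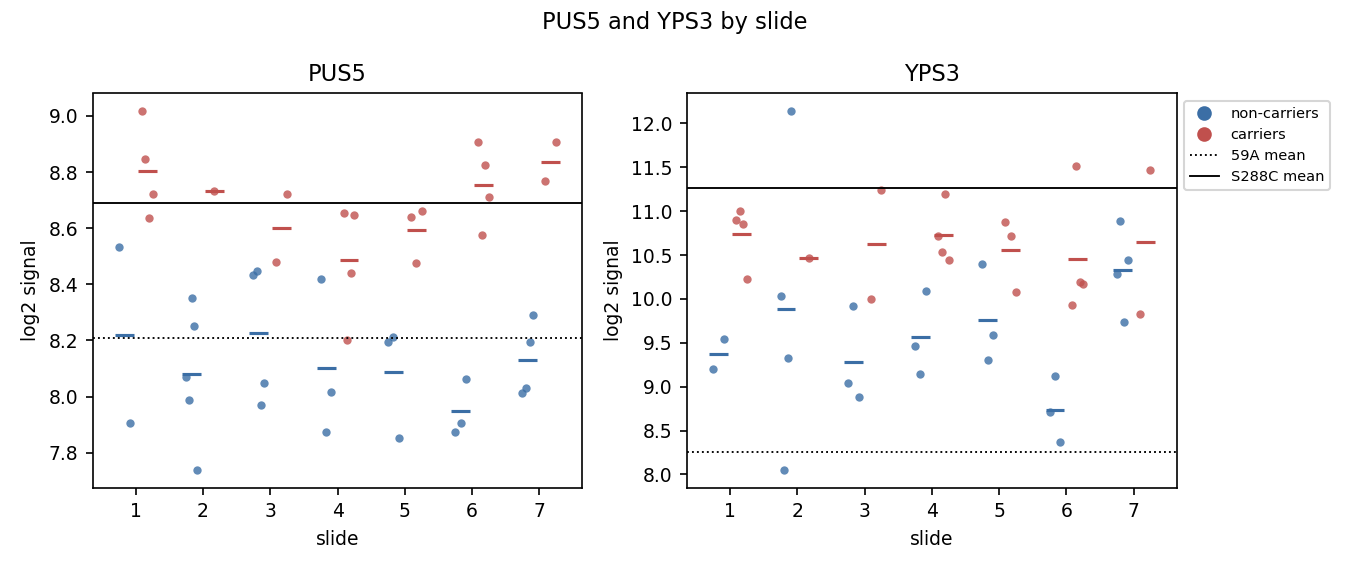
Log2 signal of PUS5 and YPS3 in each segregant by slide, non-carriers in blue and carriers in red, with the group mean on each slide as a short bar and the parents' means as lines. For both genes the carriers' mean is above the non-carriers' on all 7 slides, and the non-carrier 7c on slide 2 is the highest point of YPS3.

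The nearest neighbours of the repeat, other than PUS5, did not pass the test. Of the 22 genes from YLR140 to YLR175 outside the repeat, 14 had a positive and 8 a negative difference, and the median was 0.10; over all probes 2900 of 6227 were positive and the median was -0.01. Of the 21 other than PUS5, 3 had an unadjusted p under 0.05, beside 6.84% of all probes. MAS1 and ACS2 were named after their values were seen. MAS1, a subunit of the protease that trims proteins imported into mitochondria, lies 3 places to the right of the repeat and differed by -0.19 (95% interval -0.36 to -0.02, limma, adjusted p = 0.71). The parents differed at MAS1 by -1.18. ACS2, the cytosolic acetyl-CoA synthetase 5 places to the left, differed by 0.47 (95% interval -0.10 to 1.05) between carriers and non-carriers and by -1.63 between the parents. PUT1, the first enzyme of proline breakdown and 17 places to the left, differed by 1.16 (95% interval -0.09 to 2.40) against -2.17 in the parents. For 17 of the 22 neighbours the segregants' interval did not hold the parental difference, and PUS5 was among the 5 for which it did. This count leaves out the error of the parental differences, which rest on 2 extracts of each parent. Some of the 17 missed narrowly, such as RRN5, with a parental 0.397 beside an interval ending at 0.388. Of the 22 neighbours, 5 passed the parental test with its minimum of 0.7 log2 units, and PUS5 did not.

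**Figure D3:**
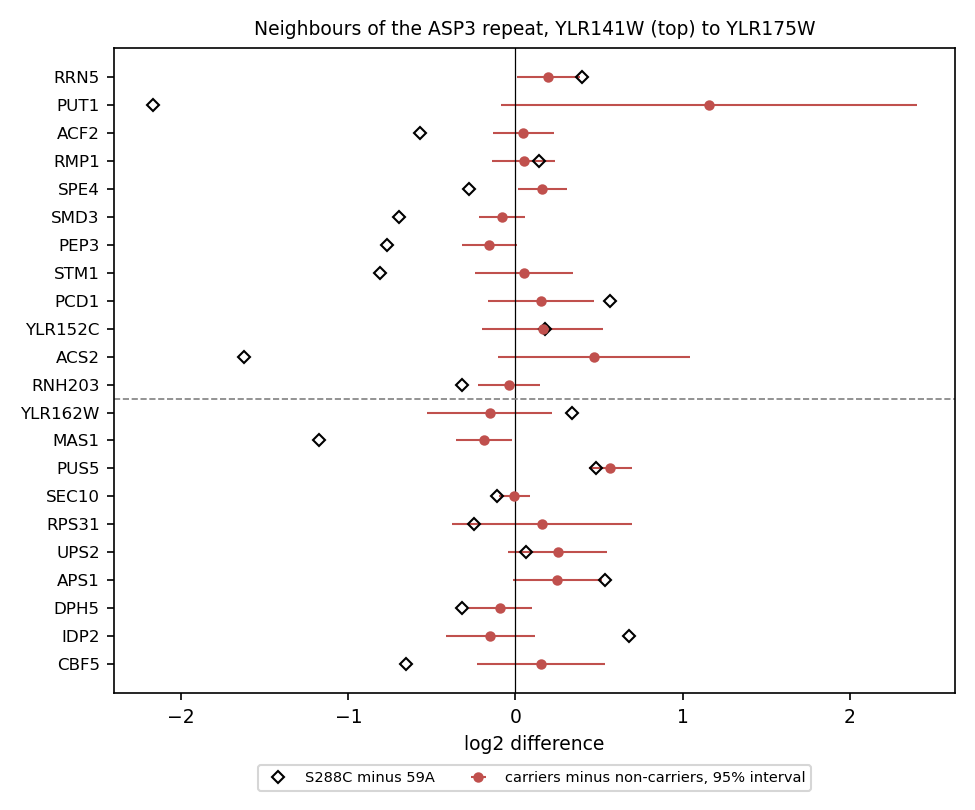
Difference of carriers minus non-carriers (red points, 95% interval) and of S288C minus 59A (open diamonds) for 22 genes on both sides of the repeat, in gene order, on a log2 scale; the dashed line marks the place of the repeat. PUS5 at 0.57 stands clear of zero beside its parental value of 0.48, while MAS1, ACS2 and PUT1 lie far from theirs.

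Further out along the arm, unadjusted p-values under 0.05 (limma) were more frequent within 120 genes of the repeat than on other chromosomes. The bounds of the bins used here were set after the values were seen, and genes of one arm are inherited together, so these shares are a description. Within 120 annotated genes, 18 of 99 genes to the right (18.2%) and 12 of 93 to the left (12.9%) had an unadjusted p under 0.05, against 6.93% of 4750 genes on other chromosomes. Beyond that distance the shares were 4.93% of 142 genes to the right and 6.74% of 89 to the left, which takes in the left arm. Without 19c and 20a, the shares near the repeat were 10.1% and 8.60% and that of the other chromosomes 4.04%. Without the carriers at the ceiling they were 11.1% to the right, 4.30% to the left and 2.78% on other chromosomes. To the right the share did not fall steadily, with 19.4% within 40 places, 15.6% at 41 to 80 and 19.4% at 81 to 120. Over the whole right arm outside the repeat, 38 of 367 genes (10.4%) had an unadjusted p under 0.05, and the other 31 chromosome arms ranged from 4.15% to 14.3%, the highest being an arm with 35 genes. Among genes that passed the parental test (adjusted p under 0.01 and over 0.7 log2 units, 25.2% of 5969 probes), the share whose carriers' difference had the sign of the S288C difference showed no steady order with distance. To the right it was 8 of 10 genes within 40 places, 6 of 7 at 41 to 80, 4 of 8 at 81 to 120, 7 of 14 from there to 200 and 15 of 20 beyond. To the left it was 5 of 9 within 40 places, 9 of 14 at 41 to 100 and 19 of 26 beyond, and on other chromosomes 56.1% of 1186. Most of these bins hold under 20 such genes.

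HCR1, a translation initiation factor 29 places to the right, and TFS1, an inhibitor of carboxypeptidase Y 16 places to the right, gave the next smallest p-values among YLR genes; both were named after their values were seen. HCR1 differed by 0.38 ± 0.11 and TFS1 by -0.68 ± 0.21 (SE), each with an adjusted p of 0.57 by limma. HAP1, the heme-responsive transcription factor that the study placed under one of its regulatory hotspots, lies 88 places to the right. Its log2 signal was 11.09, 11.93 and 12.91 (lowest, median, highest) in the carriers and 10.61, 11.87 and 12.92 in the non-carriers, ranges that overlap almost whole. The difference was 0.15 (95% interval -0.23 to 0.52, limma, adjusted p = 0.86), an interval that ends well under the parental difference of 1.75. On the left arm of the same chromosome, the trichothecene acetyltransferase AYT1, also named after its values were seen, was above the detection limit in 15 of 20 carriers and 9 of 24 non-carriers, with medians of 7.89 and 5.39 and an adjusted p of 0.59 by limma. It was below the limit on all 6 arrays of 59A, so its differences on the log2 scale are not given.

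**Figure D4:**
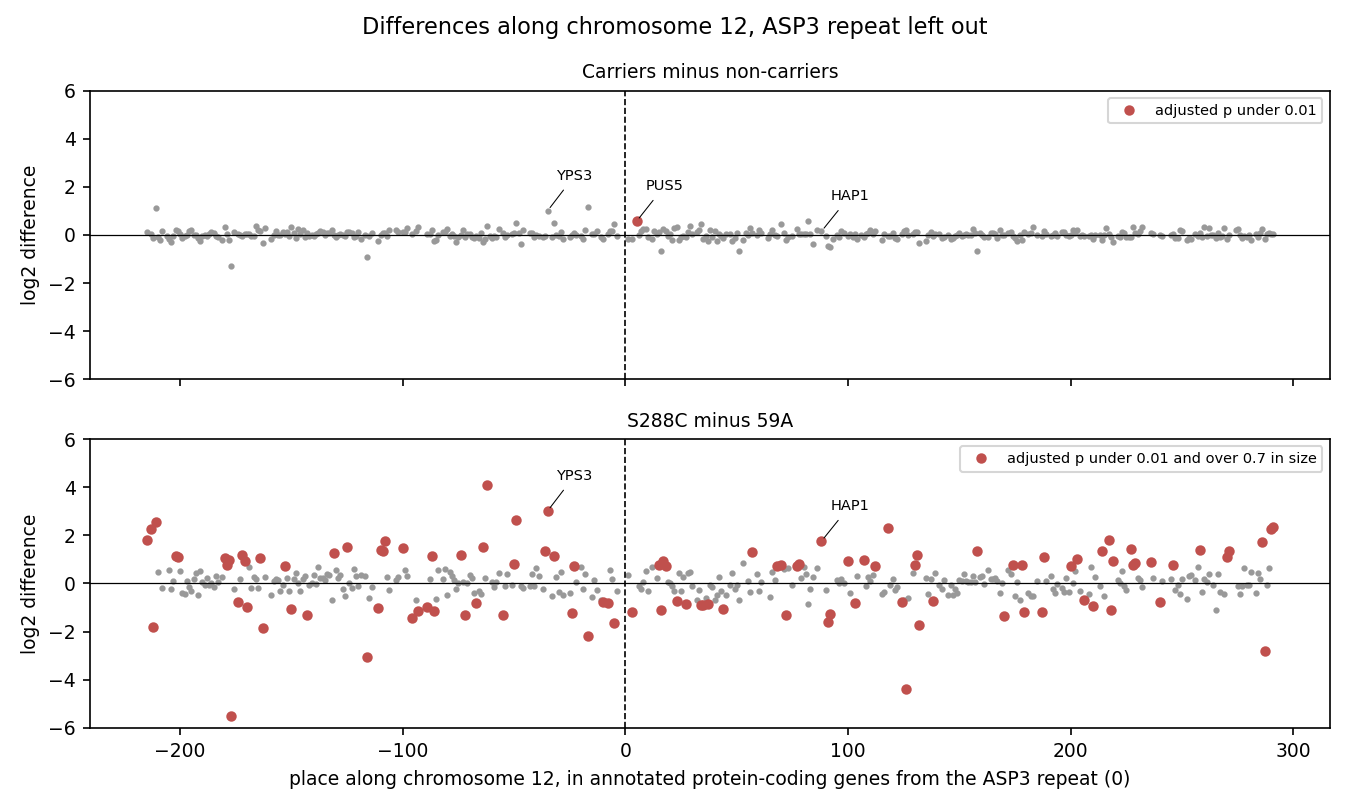
Log2 difference of each gene of chromosome 12, for carriers minus non-carriers (top) and S288C minus 59A (bottom), by its place in annotated protein-coding genes from the repeat, which is left out; red points passed the test named in the legend. PUS5 is the called gene in the top panel and has no point in the bottom one, where a 59A array lacked a value; YPS3 is at 1.00 above and 3.01 below.

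Genes of asparagine and aspartate metabolism showed no call. None of 12 had an unadjusted p under 0.05, 10 differences were positive, and their median was 0.10 beside -0.01 over all probes. Without 19c and 20a, 7 of the 12 were positive and the median was 0.00080, and without the 4 carriers at the ceiling 5 were positive and the median was -0.02. ASP1, the intracellular asparaginase, gave 7.45, 8.04 and 10.15 (lowest, median, highest log2 signal) in the carriers and 7.50, 8.30 and 9.66 in the non-carriers. Its difference was 0.01 (95% interval -0.36 to 0.38, limma, adjusted p = 0.99), although the parents differed by 0.99. The asparagine synthetases ASN1 and ASN2 differed by 0.21 (95% interval -0.16 to 0.58) and 0.11 (95% interval -0.14 to 0.35), with adjusted p of 0.79 and 0.84 by limma. Without the carriers at the ceiling these differences were 0.10 and 0.013. The aspartate aminotransferase AAT2, itself a YLR gene and, like ASN2, named after its values were seen, differed by -0.01 (95% interval -0.21 to 0.19). Pyruvate carboxylase PYC2 and the aspartate pathway genes HOM2 and HOM3 had the other smallest p-values of the list, with differences of 0.28, 0.29 and 0.27 whose intervals all held zero.

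Nitrogen catabolite repression is the shut-off of genes for poor nitrogen sources while good ones last. Of its 35 tested genes, 0 were called, 4 had an unadjusted p under 0.05, all 4 with higher means in the carriers (2.68% of all probes were so), and the median difference was 0.19, with 26 positive. The ammonium permease MEP2 differed by 1.12 (95% interval 0.13 to 2.12), the proline permease PUT4 by 1.10 (95% interval 0.00 to 2.20), the arginine permease CAN1 by 0.56 and the glutamate dehydrogenase GDH1 by 0.53, each with an adjusted p of 0.71 by limma. The general permease GAP1 gave 11.36 ± 1.83 in the carriers and 10.32 ± 1.88 in the non-carriers (SD, n = 20 and 24), a difference of 1.05 (95% interval -0.06 to 2.15, limma, adjusted p = 0.71). Without the carriers at the ceiling the GAP1 difference was 0.48. In the parents the difference of S288C minus 59A was -4.36 for GAP1, -1.94 for PUT4, -1.95 for MEP2 and -1.71 for CAN1. For these 4 genes the sign is opposite to that of the carriers' difference. The parental value of GDH1 and a count of parental signs over the 35 genes are not given here. Without 19c and 20a the median of the list was 0.14, and none of its genes had an unadjusted p under 0.05. With the level of the chromosome 16 left arm as a covariate, 27 were positive, the median was 0.28 and none was called. In that fit 10 of the 35 had an unadjusted p under 0.05, beside 659 of 6227 probes. Of 19 amino acid permeases, 0 were called and the median was -0.02; MUP1, the methionine permease, had the smallest p, with a difference of 0.46 (95% interval 0.07 to 0.85, limma, adjusted p = 0.68).

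**Figure D5:**
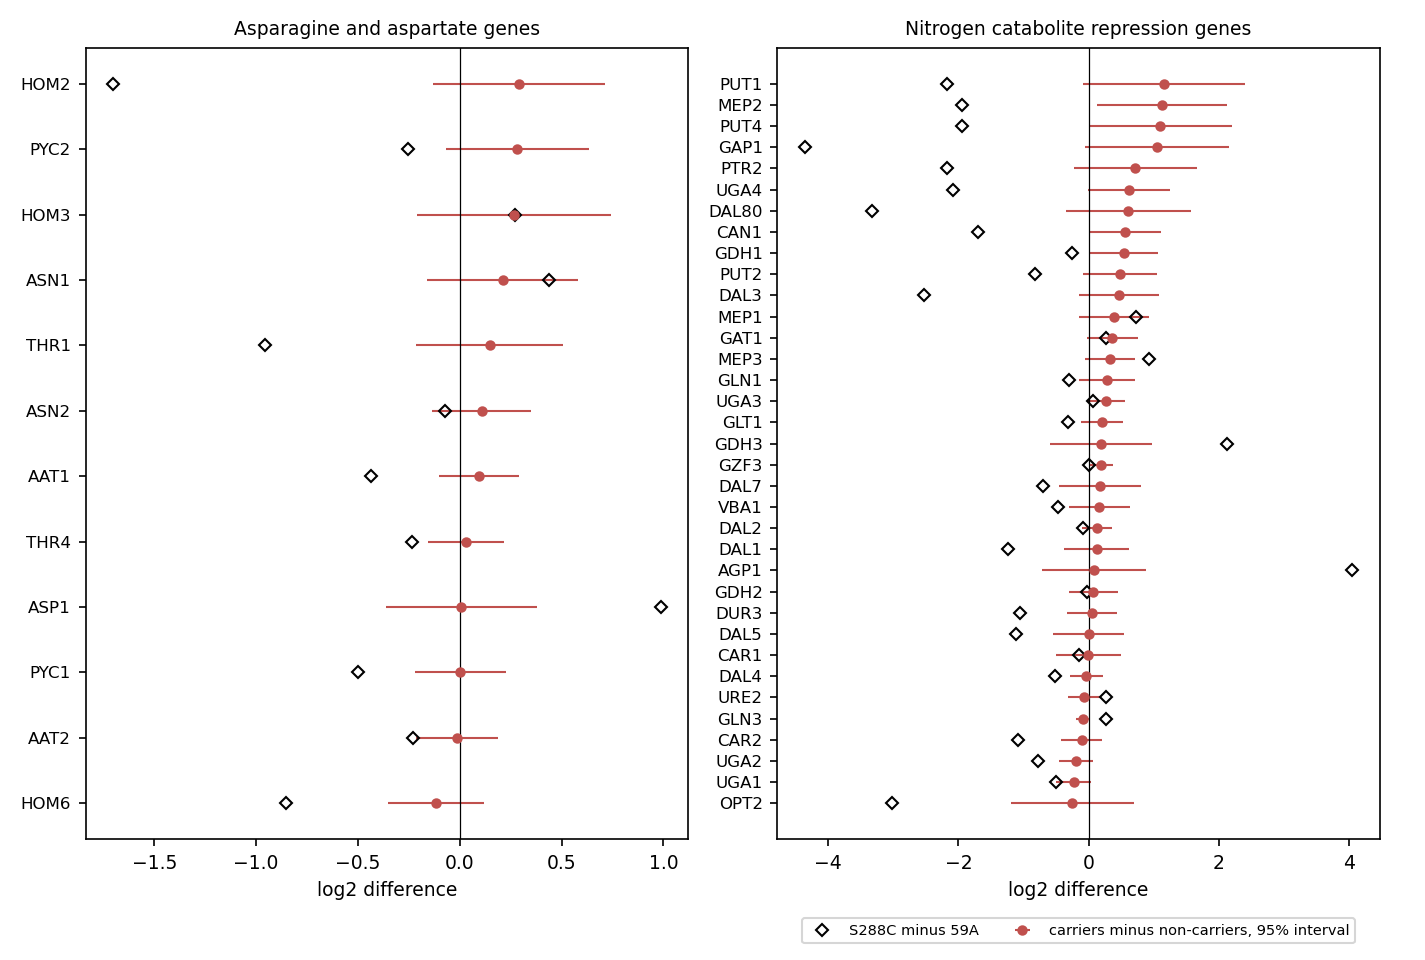
Difference of carriers minus non-carriers (red points, 95% interval) and of S288C minus 59A (open diamonds) for 12 asparagine and aspartate genes and 35 genes of nitrogen catabolite repression, on a log2 scale. No gene passed the test between carriers and non-carriers; ASP1 lies at 0.01 beside a parental 0.99, and GAP1 at 1.05 beside a parental -4.36.

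Within the 20 carriers, the level of ASP3 was set against 6 nitrogen genes. The copies are at the ceiling of the scale in 4 of the 20, whose levels are therefore not fully measured. The mean holds ASP3-4, the probe of the split, and its near-identical copies, so the correlations are given as a description. Without the 4 carriers at the ceiling, r over the other 16 was 0.19 for GAP1, 0.26 for DAL80 and 0.48 for DAL5. It was 0.24 for PUT1, -0.0048 for MEP2 and 0.02 for AGP1. Over all 20, the mean of the 4 copies correlated with GAP1 (r = 0.58, rho = 0.47), with DAL80, a repressor of the same genes (r = 0.60, rho = 0.44), and with the allantoate permease DAL5 (r = 0.57, rho = 0.45), each with an adjusted p of 0.019 for r and 0.11 for rho (permutation tests, two-sided, adjusted over the 6 pairs; unadjusted p for r 0.0095, 0.0066 and 0.0082). For PUT1, MEP2 and the permease AGP1, r was 0.47, 0.38 and -0.36 and rho was 0.40, 0.39 and -0.12 (adjusted p for r 0.052, 0.12 and 0.12, for rho 0.11, 0.11 and 0.62, permutation tests). With each slide's mean removed and values permuted within slides, r was 0.78 for GAP1, 0.79 for DAL80 and 0.73 for DAL5 (adjusted p = 0.0079 for each, permutation test). The values with slide means removed were not computed without the 4 carriers at the ceiling. The relation rested on few segregants: besides the loss without the 4 at the ceiling, without 20a and 22d, the 2 farthest from the median, r was 0.46, 0.47 and 0.56 (adjusted p = 0.11, 0.11 and 0.092, permutation test). No slide held 6 carriers, so r within a slide was not computed.

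The other gene lists likewise held no call. Of 25 HAP1 and heme-regulated genes, the cytochrome c isoforms had the smallest p-values and opposite signs, CYC1 at 0.61 (95% interval 0.07 to 1.14) and CYC7 at -0.87 (95% interval -1.73 to -0.02), each with an adjusted p of 0.71 by limma. The 26 tested genes that the study tied to HAP1 and PDR8, which it chose on these samples, had a median of 0.07, and the 25 ergosterol genes one of 0.12. Among 25 genes of drug and weak acid transport the median was 0.02, with the polyamine exporter TPO2 at 1.25 (95% interval 0.05 to 2.45) and the ABC transporter PDR15 at -0.38 (limma, adjusted p = 0.71 for both).

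Other features of the segregants were set against the split. All 29 tested genes of trehalose, glycogen and stress had negative differences, with a median of -0.37, and 4 of them had an unadjusted p under 0.05 (4.16% of all probes had one and were lower in the carriers). The lowest adjusted p among them was that of the small heat shock protein HSP42, with a difference of -0.50 ± 0.16 (SE, limma, adjusted p = 0.57). Both segregants that stood lowest for the list's mean, 19c at 9.05 and 20a at 9.45, were carriers, and without them 20 of 29 differences were negative with a median of -0.11. Of 8 genes specific to mating type a, all 8 had positive differences (median 0.27), and of 6 specific to type alpha all 6 had negative ones (median -0.35). Without 19c and 20a, 5 of the 8 and 0 of the 6 were positive. The genes of both types follow the mating-type locus MAT, so their signs are tied and are not separate observations. On the left arm of chromosome 16, which some segregants carry in an added copy, the mean level was 8.88 ± 0.34 in the carriers and 8.94 ± 0.36 in the non-carriers (SD). It was above 9 in 5 of 20 carriers and 8 of 24 non-carriers, with no segregant between 8.79 and 9.31. The part of these features in the differences between carriers and non-carriers was not tested beyond the fits with that arm's level as a covariate and without 19c and 20a, and PUS5 and the genes of the repeat passed 0.01 in both, as far as tested there.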

How the data were processed

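RNA of the 44 segregants and of 2 extracts of each parent was measured on one-colour Agilent arrays (Cy3). The authors deposited log2 spot intensities that they had quantile normalized over all arrays with limma in R 2.13.1, according to the submitters' processing notes and the methods; the medians of the 56 arrays lay between 8.24 and 8.28. Quantile normalization gives every array the same distribution, so levels are relative and bright probes meet a ceiling. The methods count one array fewer than the table holds. The genome build was not given in the sources used here; gene order came from RefSeq (assembly R64), and 5197 of 6245 probes had a gene name. No sequences were used here.

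The 44 segregants were split at an ASP3-4 log2 value of 10 and compared with limma 3.58.1 in R 4.3.3 (lmFit, eBayes, Benjamini-Hochberg) over the 6227 probes with a value in at least 40 segregants; 1067 of these had missing values, and 9c and 13b lacked 571 and 562 values. A call needed an adjusted p under 0.01, as in the methods. Parents were fitted on extract means of probes complete on all 12 arrays, with means over the arrays having a value for PUS5 and the repeat frames. Named genes were the called ones, called genes of YLR140 to YLR175, HAP1, ASP1 and the 4 members of each list with the smallest p, and the 6 genes of the correlations, of which the text gives part; CRM1, YPS3, HCR1, TFS1, MAS1, ACS2, AYT1, AAT2 and ASN2 fall outside this rule and were named after their values were seen. The members and lists were chosen with earlier results of these data known. Correlations used 100000 permutations. The scripts were tested on simulated data. Alternatives tried were slide, HAP1, chromosome 16 and name number as terms, filters, scaling, thresholds and segregants left out; those without 21c and 29c, without the carriers at the ceiling and with each segregant left out were chosen after seeing the data.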

Additional observations from a re-analysis of the deposited data

How the results depend on the processing

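The comparison of carriers with non-carriers gave 8 calls in 11 of its 12 other fits and 7 among probes with all 44 values, where ASP3-1 was not tested; at an adjusted p of 0.05 it gave 9, and 7 with a difference above 0.7 asked as well. Calls without a YLR name were 0 in each. PUS5 ranged from 0.55 to 0.58 over these fits and from 0.55 to 0.59 when single segregants were left out, always under 0.01, and its difference of 0.57 misses only the 0.7 minimum. YPS3 ranged from 0.97 to 1.09 (adjusted p 0.024 to 0.13); at 0.05 its 1.00 passes. CRM1 ranged in adjusted p from 0.024, with HAP1 as a covariate, to 0.29, with slide as a block. ASP1 changed sign around zero, to -0.011 with HAP1 as a covariate, -0.00013 with name number as a block, -0.025 without 9c and 13b, -0.15 without 19c and 20a, -0.00089 without 21c and 29c and -0.20 without the carriers at the ceiling. Without the carriers at the ceiling GAP1 was 0.48, ASN1 0.10 and ASN2 0.013, none called. Correlations with ASP3 without the 2 farthest carriers were 0.46 for GAP1, 0.47 for DAL80 and 0.56 for DAL5, no longer past 0.05; with slide means removed, MEP2 (0.45), PUT1 (0.65) and AGP1 (-0.69) passed it. The parents gave 1503 calls, 1528 with a replicate block, 1398 to 1610 without single extracts, 1524 from single arrays and 1579 from extract means over available arrays; PUS5 ranged from 0.40 to 0.56 (highest adjusted p 0.033). With 2 pairs, the extract numbers were not taken to pair the parents (correlation 0.44). Signals near background and at the ceiling limit the ASP3 probes.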
